A study of Mus musculus with 12 samples.

Results

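Polycomb repressive complex 2 (PRC2) and the enzymes that remove its mark were followed across 4 stimulation states of mouse CD4+ T cells, by the RNA levels of 9 genes. These were the catalytic subunits Ezh1 and Ezh2, the core subunits Eed and Suz12, the accessory subunits Jarid2, Phf19 and Mtf2, and the demethylases Kdm6a and Kdm6b. They were taken by gene symbol alone, and all 9 were found among the 17203 genes of the expression table.

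PRC2 methylates lysine 27 of histone H3, and the trimethylated form (H3K27me3) marks genes that are held silent. EZH1 and EZH2 are alternative catalytic subunits. EZH2 is typical of dividing cells and EZH1 of resting ones. In T cells EZH2 is known for restraining helper effector genes and for its part in expansion after antigen stimulation, and KDM6A and KDM6B oppose the complex by demethylating the same lysine.

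The cells were primary CD4+ (helper) T cells isolated from C57BL/6 mice, in 4 groups of 3 libraries. Those called unstimulated were taken fresh, without activation, and their sample descriptions name them Naive_CD4. CD3 cells spent 72 h with anti-CD3 bound to the plate, which triggers the antigen receptor. CD3_CD28 cells had plate-bound anti-CD3 and soluble anti-CD28, an antibody to the main costimulatory receptor, also for 72 h. CD3_CD28_ICOS cells had anti-CD3, anti-CD28 and anti-ICOS, all in soluble form, for 72 h, so that the form of anti-CD3 changed together with the addition of anti-ICOS, an antibody to a further receptor of the CD28 family. Stimulation and 72 h of culture cannot be told apart in comparisons with unstimulated cells, which were not cultured. The series design speaks of transduced cells, while no label of these samples names a transduction. No label states that libraries of 1 group were separate mice or cultures, and the p-values therefore rest on the spread between libraries, which may be technical.

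Depth, estimated from the steps between low values, was 11.4 to 37.5 M reads per library (M for 1e6), so that 1 read was worth at most 0.0877 CPM (counts per 1e6 reads assigned to genes). The defining T cell genes Cd3e and Cd4 were at 177 CPM or more and 528 CPM or more in every library. The 7 listed T cell markers, which include both, summed to 4712 to 5140 CPM in unstimulated libraries and to 2832 to 3335 CPM in CD3. Their sums were 2736 to 3184 CPM in CD3_CD28 and 4204 to 4586 CPM in CD3_CD28_ICOS. The 7 listed B cell markers summed to between 118 and 206 CPM in unstimulated libraries, between 290.1 and 635 CPM in CD3, between 6.67 and 9.50 CPM in CD3_CD28 and between 199.8 and 602 CPM in CD3_CD28_ICOS. In CD3_CD28 4 of the 7 stayed below 1 CPM in every library. The 8 myeloid markers summed to 156 to 413 CPM in unstimulated libraries and to at most 15.02 CPM in the stimulated ones, and the 7 pancreatic acinar markers to between 299.7 and 1543 CPM and to at most 1.63 CPM. The part of these other cells in the results below was not tested except where a value is given. In bulk RNA, fewer cells of a type and less RNA per cell cannot be told apart. A ribosomal RNA gene, CT010467.1, took 11.8% of CD3_CD28 replicate 1 against 1.26 to 3.20% elsewhere, and results are given without that library where it decides them.

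Genes were tested with limma on log2(CPM + 1) when they reached 10 CPM in at least 3 libraries, which 9826 did. All 9 genes qualified. Of them 8 reached 10 CPM in every library, while Phf19 did so only in stimulated libraries and was therefore bound to differ. A gene is called higher or lower below at a limma adjusted p under 0.05. Fold changes are differences of log2(CPM + 1) with their SE, and are understated for low genes.

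In cells on anti-CD3 alone, 5 of the 9 genes were higher than in unstimulated cells (Ezh2, Eed, Suz12, Phf19 and Mtf2) and 3 were lower (Ezh1, Kdm6a and Kdm6b). Among all genes tested 69.8% were called in that comparison, 43.6% higher and 26.3% lower. The 2 groups did not overlap for 8 of the 9 genes and for 76.9% of all. With CD28 costimulation 5 were higher (Ezh2, Eed, Suz12, Jarid2 and Phf19) and 2 lower (Ezh1 and Kdm6a), against 75.2% of all genes called, 36.1% higher and 39.1% lower, and 7 of the 9 did not overlap, against 76.7%. In CD3_CD28_ICOS 5 were higher (Ezh2, Suz12, Jarid2, Phf19 and Mtf2) and 0 lower, against 59.4% called, 35.6% higher and 23.7% lower, and 5 of the 9 did not overlap, against 64.5%. The 3 comparisons share the unstimulated libraries, and each count of higher genes includes Phf19, which passed the filter only through stimulated libraries.

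Between stimulated groups, CD3_CD28 had 2 of the 9 genes higher than CD3 (Jarid2 and Kdm6b) and 2 lower (Phf19 and Mtf2), with 64.4% of all genes called, 18.7% higher and 45.7% lower. Here 5 of the 9 did not overlap, against 72.4%. CD3_CD28_ICOS had 3 higher than CD3 (Ezh1, Kdm6a and Kdm6b) and 5 lower (Ezh2, Eed, Suz12, Phf19 and Mtf2), with 47.7% called, 18.9% higher and 28.7% lower, and 8 of the 9 did not overlap, against 58.5%. Against CD3_CD28 it had 3 higher (Ezh1, Mtf2 and Kdm6a) and 4 lower (Ezh2, Eed, Suz12 and Jarid2), with 63% called, 38.5% higher and 24.5% lower, and 6 of the 9 did not overlap, against 64.8%. Limma's F test over the 3 stimulated groups called all 9 genes, and 80.7% of those tested, with adjusted p-values of the 9 from 1.47e-06 for Mtf2 to 0.0359 for Ezh1. With so many genes called, these counts do not set the 9 apart from other genes. The median log2 change of the 9 was 0.42, 0.57 and 0.31 in CD3, CD3_CD28 and CD3_CD28_ICOS against unstimulated cells, with 0.18, -0.04 and 0.08 over all genes tested. After quantile normalisation the medians of the 9 were 0.20, 0.55 and 0.19, with -0.07, -0.08 and -0.08 over all genes tested. With median-of-ratios size factors they were 0.27, 0.68 and 0.20, with 0.03, 0.06 and -0.02 over all genes tested.

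The split of all calls between higher and lower depended on the scaling of libraries. For CD3 against unstimulated it was 4280 higher and 2582 lower as deposited, 3119 and 3766 after quantile normalisation, and 3619 and 3375 with median-of-ratios size factors. For CD3_CD28_ICOS against unstimulated it was 3500 and 2332, then 2735 and 3487, then 3098 and 3170. For CD3_CD28 against CD3 it was 1837 and 4487, then 2882 and 3109, then 3153 and 2807. These 2 scalings shifted the median change of all genes by 0.21 and 0.24 in CD3_CD28 against CD3, by -0.25 and -0.15 in CD3 against unstimulated, and by -0.16 and -0.10 in CD3_CD28_ICOS against unstimulated. For CD3_CD28_ICOS against CD3 the split was 1859 and 2824 as deposited and 2591 and 2542 after quantile normalisation. For CD3_CD28_ICOS against CD3_CD28 it was 3787 and 2403, then 3224 and 3115, then 2782 and 3605, with median shifts of -0.12 and -0.19. No called change of the 9 genes turned its direction under either scaling.

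**Figure D1:**
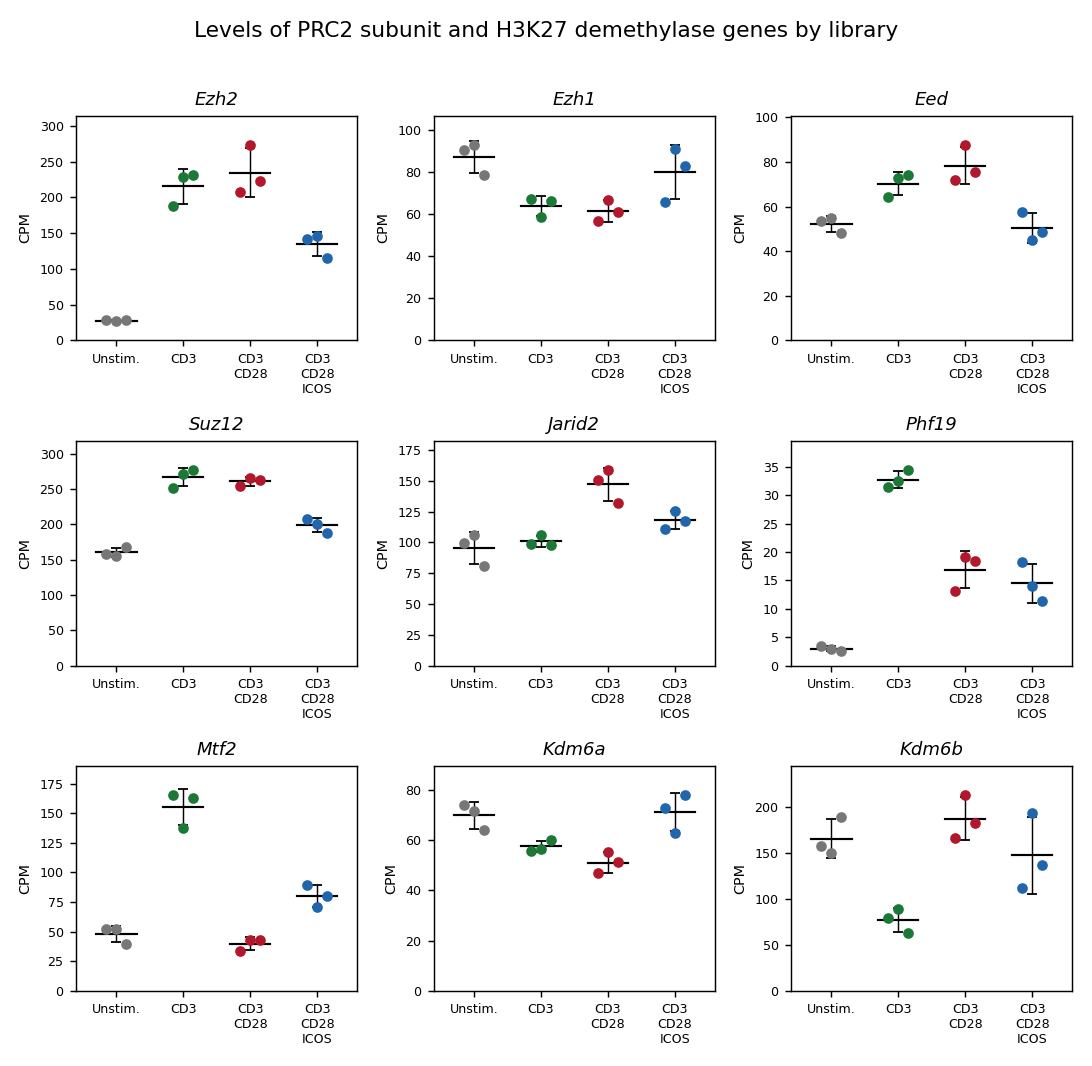
CPM of the 9 genes in each library (points) with the mean and SD of each group of 3 (bars), on linear axes that start at 0. Ezh2 went from 26.8 to 28.1 CPM in unstimulated libraries to at least 115 CPM in every stimulated one, Mtf2 was highest in CD3 and Kdm6b lowest there.

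Ezh2, the catalytic subunit of dividing cells (chromosome 6, 47530139 to 47595341, minus strand, GRCm38), was at 28.1, 26.8 and 27.8 CPM in the unstimulated libraries, 188, 228 and 232 CPM in CD3, 207, 274 and 224 CPM in CD3_CD28 and 141, 147 and 115 CPM in CD3_CD28_ICOS. Every stimulated library was above every unstimulated one, and the CD3_CD28_ICOS libraries lay below both other stimulated groups. The group means were 27.6 ± 0.687, 216 ± 24.5, 235 ± 34.5 and 134 ± 16.8 CPM (SD, n = 3 each). Over unstimulated cells Ezh2 rose by 2.92 ± 0.12 in CD3 (limma adjusted p = 2.54e-10), by 3.03 ± 0.12 in CD3_CD28 (adjusted p = 1.84e-10) and by 2.24 ± 0.12 in CD3_CD28_ICOS (adjusted p = 4.61e-09). In CD3_CD28_ICOS it was lower than in CD3, with a difference of -0.68 ± 0.12 (limma adjusted p = 0.000539) and lower than in CD3_CD28, with a difference of -0.80 ± 0.12 (adjusted p = 6.95e-05). CD3_CD28 and CD3 differed by 0.12, with a 95% interval of -0.15 to 0.38 (limma adjusted p = 0.414), and their libraries overlapped. With median-of-ratios size factors the same difference was 0.37 and called (limma adjusted p = 0.0123).

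Ezh1, the paralog that keeps H3K27 methylated in resting cells (chromosome 11, 101191115 to 101226463, minus strand), was at 90.3, 92.8 and 78.5 CPM in unstimulated libraries, 67.0, 58.5 and 66.3 CPM in CD3, 56.5, 66.7 and 61.1 CPM in CD3_CD28 and 65.8, 91.0 and 83.0 CPM in CD3_CD28_ICOS. CD3 and CD3_CD28 lay wholly below unstimulated cells, and CD3_CD28_ICOS overlapped each of the other groups. Ezh1 fell by 0.44 ± 0.12 in CD3 (limma adjusted p = 0.00475) and by 0.50 ± 0.12 in CD3_CD28 (adjusted p = 0.0018), and in CD3_CD28_ICOS its difference from unstimulated was -0.13, with a 95% interval of -0.39 to 0.12 (adjusted p = 0.35). It was higher in CD3_CD28_ICOS than in CD3 by 0.31 ± 0.12 (limma adjusted p = 0.0486) and than in CD3_CD28 by 0.36 ± 0.12 (adjusted p = 0.0167). These last calls were fragile. The first was lost in 10 of the alternatives, with limma adjusted p between 0.0503 and 0.181, among them leaving out any 1 CD3 library or CD3_CD28_ICOS replicate 2 or 3. The second was lost under both other scalings (limma adjusted p = 0.0703 and 0.228) and without CD3_CD28 replicate 1 (adjusted p = 0.0635), CD3_CD28_ICOS replicate 2 (adjusted p = 0.0719) or replicate 3 (adjusted p = 0.058).

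The balance of the catalytic pair was read within each library as the difference of Ezh2 and Ezh1 in log2(CPM + 1). But for the added 1, the scaling of the library cancels in it and gene length shifts all libraries alike. It was -1.65, -1.75 and -1.46 in the unstimulated libraries, 1.47, 1.95 and 1.79 in CD3, 1.86, 2.02 and 1.85 in CD3_CD28, and 1.09, 0.68 and 0.47 in CD3_CD28_ICOS. Unstimulated libraries were all negative and stimulated ones all positive, and CD3_CD28_ICOS lay between unstimulated cells and the other stimulated groups without overlap. The 4 groups differed in an exact permutation test of the F statistic over 369600 assignments of the 12 libraries (p = 0.00026, Benjamini-Hochberg adjusted p = 0.000519 over 2 tests, the smallest possible being 6.49e-05). The 3 stimulated groups also differed (exact permutation p = 0.0143 over 1680 assignments, adjusted p = 0.0143, the smallest possible being 0.00357). Pairs of groups of 3 libraries were not tested on this measure, as the smallest p of an exact test of 3 against 3 is 0.1.

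Per kilobase of annotated exon, Ezh2 made up 26.1 ± 2.01% of the summed Ezh1 and Ezh2 level in unstimulated cells, 78.9 ± 2.85% in CD3, 80.9 ± 0.991% in CD3_CD28 and 65.2 ± 4.96% in CD3_CD28_ICOS (SD, n = 3 each). The lowest stimulated library was at 60.8% and the highest unstimulated one at 28.3%. These shares depend on the length used. With the longest coding transcript of each gene, a choice made after seeing the data, they were 32.4%, 83.5%, 85.2% and 71.7%, in the same order of groups. RNA shares say nothing direct of the amounts of the 2 proteins.

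**Figure D2:**
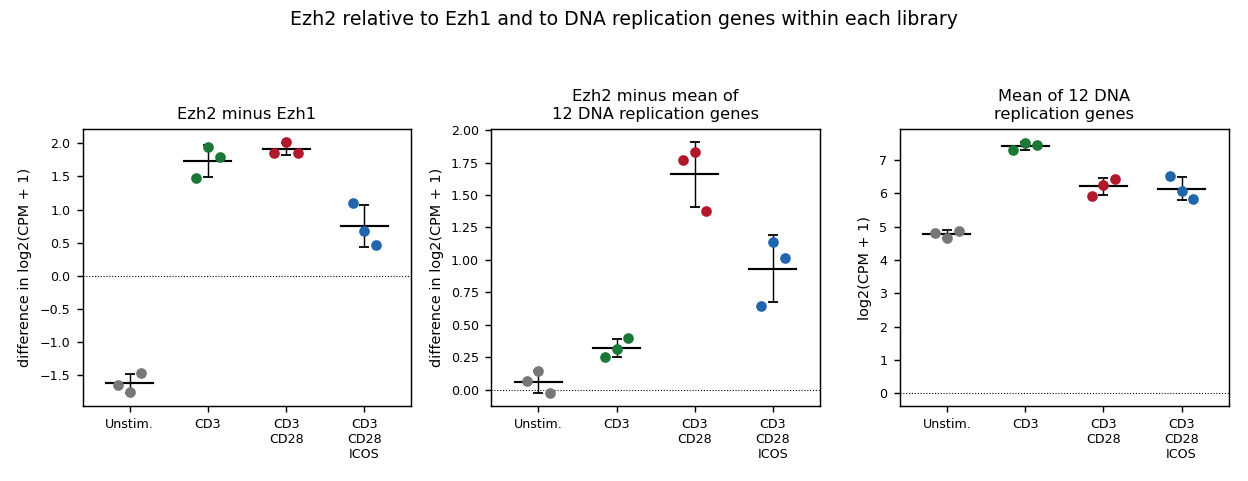
Log2 differences within each library (points, with mean and SD of the 3 libraries of a group): Ezh2 minus Ezh1, Ezh2 minus the mean of 12 DNA replication genes, and that mean itself on the log2(CPM + 1) scale. The first turned from negative to positive with stimulation, and the second was highest in CD3_CD28, at 1.37 to 1.83.

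Ezh2 was set beside 12 DNA replication genes, since its RNA is known to rise in dividing cells. Over all genes tested, 43.6% were called higher in CD3 than in unstimulated cells, with a median change of 0.18. All 12 of the replication genes were called higher there, with a median of 2.60. Of them Cdc6, Gins1, Gins2 and Rrm2 were under 10 CPM in every unstimulated library and passed the filter only through stimulated ones, so that for these 4 the filter favoured a rise. All 12 were lower in CD3_CD28 than in CD3, beside 45.7% of all genes, with a median of -1.17 against -0.24 over all genes. With median-of-ratios size factors 11 of 12 were called lower in CD3_CD28. Mcm2, part of the replicative helicase, was at 263 CPM in CD3 and 106 CPM in CD3_CD28, and Rrm2, a ribonucleotide reductase subunit, at 186 and 62.6 CPM, whereas Ezh2 was at 216 and 235 CPM. Ezh2 minus the mean of the 12, on the log2 scale, lay between -0.03 and 0.14 in unstimulated libraries and between 0.25 and 0.39 in CD3. It lay between 1.37 and 1.83 in CD3_CD28 and between 0.64 and 1.14 in CD3_CD28_ICOS. The 4 groups did not overlap in this measure, which was chosen with the data in view and was not tested. Phf19 minus the same mean lay between -3.08 and -2.64 in unstimulated libraries, between -2.46 and -2.29 in CD3, between -2.16 and -1.93 in CD3_CD28 and between -2.25 and -2.16 in CD3_CD28_ICOS. On this measure the unstimulated libraries were lowest, followed by CD3 without overlap. Phf19 passed the filter only through stimulated libraries, so that the filter favoured its low place in unstimulated ones. A further list, 12 genes of mitosis, had a median of -0.84 in CD3_CD28 against CD3. In CD3_CD28_ICOS against CD3_CD28 its median was 0.18, with 3 called higher and 0 lower, beside 38.5% and 24.5% of all genes. That median was 0.07 after quantile normalisation and -0.02 with median-of-ratios size factors. The replication genes had a median of -0.13 there as deposited, and Ezh2 a difference of -0.80.

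The core subunits changed by smaller folds than Ezh2, a contrast that was not tested. Suz12, the scaffold of the complex (chromosome 11, 79993106 to 80034123, plus strand), was at 157, 156 and 168 CPM in unstimulated libraries, 252, 271 and 277 CPM in CD3, 254, 265 and 262 CPM in CD3_CD28 and 208, 200 and 187 CPM in CD3_CD28_ICOS. Every stimulated library was above every unstimulated one, and CD3_CD28_ICOS lay between them and the other stimulated groups without overlap. Suz12 rose by 0.73 ± 0.07 in CD3 (limma adjusted p = 9.61e-07), 0.70 ± 0.07 in CD3_CD28 (adjusted p = 1.14e-06) and 0.31 ± 0.07 in CD3_CD28_ICOS (adjusted p = 0.00277). In CD3_CD28_ICOS it was lower than in CD3, with a difference of -0.42 ± 0.07 (limma adjusted p = 0.000475) and lower than in CD3_CD28, with a difference of -0.39 ± 0.07 (adjusted p = 0.000429). CD3_CD28 minus CD3 was -0.03, with a 95% interval of -0.19 to 0.13 (limma adjusted p = 0.72), but 0.22 and called with median-of-ratios size factors (adjusted p = 0.0229).

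Eed, the subunit that reads H3K27me3 and stimulates the enzyme (chromosome 7, 89954654 to 89980983, minus strand), was at 53.5, 55.0 and 47.9 CPM in unstimulated libraries, 64.3, 72.7 and 74.0 CPM in CD3, 72.0, 87.6 and 75.4 CPM in CD3_CD28 and 57.6, 44.8 and 48.6 CPM in CD3_CD28_ICOS. The unstimulated and CD3_CD28_ICOS libraries overlapped and lay below the other 2 groups. Eed rose by 0.42 ± 0.11 in CD3 (limma adjusted p = 0.00382) and 0.57 ± 0.11 in CD3_CD28 (adjusted p = 0.000329). The first of these was not called after quantile normalisation (limma adjusted p = 0.0577). CD3_CD28 minus CD3 was 0.15, with a 95% interval of -0.09 to 0.39 (limma adjusted p = 0.246). After quantile normalisation that difference was 0.35 and called (limma adjusted p = 0.00488). With median-of-ratios size factors it was 0.40 and called (limma adjusted p = 0.00229). CD3_CD28_ICOS minus unstimulated was -0.06, with a 95% interval of -0.29 to 0.18 (limma adjusted p = 0.684), and CD3_CD28_ICOS was lower than CD3, with a difference of -0.48 ± 0.11 (adjusted p = 0.00318) and lower than CD3_CD28, with a difference of -0.63 ± 0.11 (adjusted p = 0.000241). Eed shares 261 exonic bases with the opposite-strand transcript E230029C05Rik, which reached at most 0.591 CPM, and whether counting used strand is not given in the sources used here.

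Set against the mean log2 level of Eed and Suz12, Ezh2 lay between -1.75 and -1.66 in unstimulated libraries and between 0.55 and 0.70 in CD3. It lay between 0.61 and 0.84 in CD3_CD28 and between 0.27 and 0.62 in CD3_CD28_ICOS. This difference within a library separated unstimulated from stimulated cells, while the 3 stimulated groups overlapped. It is a log2 difference of CPM values with no correction for gene length.

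The start regions of all 9 genes were searched where available, and those of Ezh2, Suz12, Phf19 and Ezh1 are printed below. Of these, Ezh2, Suz12 and Phf19 were higher in every stimulated group, a direction that the filter favoured for Phf19, and Ezh1 was not. Windows from 250 bases before to 50 bases after a RefSeq start (GRCm38.p6) were found for 8 of the 9 genes, 10 windows in all. Kdm6b had none. Motif letters of E2F, the transcription factors of the retinoblastoma pathway that drive genes of cell cycle entry, were searched as TTCCCGC, as TTGGCGC, as TTCGCGC or as TTGCCGC, on both strands. They occurred in 3 of the 10 windows, those of Ezh2, Suz12 and Phf19, and in 9.57% of 32851 promoter windows. Below, capitals mark them. In Ezh2 (chr6:47594981-47595280, minus strand) TTGGCGC began at position 4 after the start, in Suz12 (chr11:79992856-79993155, plus strand) TTCCCGC at position -218, and in Phf19 (chr2:34913927-34914226, minus strand) GCGGGAA, its reverse complement, at position -208. The Ezh2 start used by RefSeq lies 311 bases inside the outermost GENCODE start of the gene. The Ezh1 window (chr11:101226414-101226713, minus strand) held none of these letters. Each window is printed 5′ to 3′ on the strand of its gene.
Ezh2: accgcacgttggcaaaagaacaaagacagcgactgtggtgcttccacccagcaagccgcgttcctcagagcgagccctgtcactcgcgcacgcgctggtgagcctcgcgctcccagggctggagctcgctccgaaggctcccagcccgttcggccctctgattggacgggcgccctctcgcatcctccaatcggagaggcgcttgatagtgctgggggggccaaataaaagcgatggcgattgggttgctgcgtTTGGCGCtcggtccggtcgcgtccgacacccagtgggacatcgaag
Suz12: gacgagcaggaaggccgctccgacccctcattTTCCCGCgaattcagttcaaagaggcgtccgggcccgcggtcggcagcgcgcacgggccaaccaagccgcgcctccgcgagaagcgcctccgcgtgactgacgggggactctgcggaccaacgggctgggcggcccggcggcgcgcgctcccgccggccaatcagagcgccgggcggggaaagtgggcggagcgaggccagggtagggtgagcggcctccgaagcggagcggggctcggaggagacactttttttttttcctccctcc
Phf19: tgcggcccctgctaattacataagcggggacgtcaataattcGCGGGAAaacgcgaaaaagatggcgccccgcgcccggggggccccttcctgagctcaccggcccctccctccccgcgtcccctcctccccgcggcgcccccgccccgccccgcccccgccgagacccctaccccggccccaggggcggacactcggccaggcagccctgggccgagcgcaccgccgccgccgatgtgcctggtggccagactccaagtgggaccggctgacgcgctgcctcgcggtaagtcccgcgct
Ezh1: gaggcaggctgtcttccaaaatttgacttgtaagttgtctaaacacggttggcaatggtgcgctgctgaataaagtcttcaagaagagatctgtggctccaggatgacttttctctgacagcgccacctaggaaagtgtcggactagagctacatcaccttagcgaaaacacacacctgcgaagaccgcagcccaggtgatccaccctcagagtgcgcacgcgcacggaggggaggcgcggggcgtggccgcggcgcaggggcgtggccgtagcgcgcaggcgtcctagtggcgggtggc

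The CCAAT box, read as CCAAT on either strand, lay in 6 of the 10 windows (1 each of Ezh2, Eed, Suz12 and Mtf2 and both of Jarid2) and in 37.4% of all windows. The windows of Ezh2 and Mtf2 that held it had 3 copies each. The cell cycle homology element, TTTGAA on either strand, lay in 3 of the 10 (Eed, Suz12 and Mtf2) and in 17.9% of all. Mtf2 had both in the window of an inner start, 12491 bases inside its outermost GENCODE start, while the window at that outermost start held none of the letters searched. The Jarid2 windows lay at starts 1300 and 1797 bases inside. AP-1 letters, TGACTCA or TGAGTCA on either strand, lay in 5.20% of all windows and in 0 of these 10. Such matches describe letters in a window and are not binding sites, and their absence says nothing of a factor.

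Genes of the E2F and retinoblastoma family were read beside them. Of 11 listed, 10 were tested, with 9 up and 1 down in CD3 against unstimulated cells, beside 43.6% and 26.3% over all genes. Of the 9, E2f1, E2f3, E2f7 and E2f8 were under 10 CPM in every unstimulated library and passed the filter only through stimulated ones. E2f1, an activating E2F, went from 3.52 CPM in unstimulated cells to 33.6, 21.8 and 13.4 CPM in CD3, CD3_CD28 and CD3_CD28_ICOS. E2f8, a repressive member, went from 2.51 to 70.4, 23.6 and 34.5 CPM. The pocket protein gene Rbl2, active in resting cells, fell by 0.68 ± 0.08 in CD3 (limma adjusted p = 4.58e-06) and by 0.92 ± 0.08 in CD3_CD28 (adjusted p = 1.56e-07). Between CD3_CD28 and CD3, 9 of 10 were lower, beside 45.7% of all genes, and Rb1, the retinoblastoma gene, was higher (0.78 ± 0.11, limma adjusted p = 3.75e-05). With either other scaling 5 were lower and Rb1 was still the 1 called higher.

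Among accessory subunits, Jarid2, which links PRC2 to ubiquitinated histone H2A (chromosome 13, 44729474 to 44921643, plus strand), was at 99.7, 106 and 80.8 CPM in unstimulated libraries, 98.5, 106 and 98.0 CPM in CD3, 150, 159 and 132 CPM in CD3_CD28 and 111, 126 and 117 CPM in CD3_CD28_ICOS. CD3_CD28 was the highest group and overlapped no other. Jarid2 rose there by 0.62 ± 0.11 over unstimulated cells (limma adjusted p = 0.000112) and by 0.54 ± 0.11 over CD3 (adjusted p = 0.000691). CD3 minus unstimulated was 0.09, with a 95% interval of -0.14 to 0.32 (limma adjusted p = 0.478). CD3_CD28_ICOS was higher than unstimulated by 0.31 ± 0.11 (limma adjusted p = 0.0219), which was not called under the other scalings (adjusted p = 0.115 and 0.102) or without unstimulated replicate 3 (adjusted p = 0.104) or CD3_CD28_ICOS replicate 2 (adjusted p = 0.0707). It was lower than CD3_CD28, with a difference of -0.31 ± 0.11 (limma adjusted p = 0.0202), which was lost without CD3_CD28 replicate 1 or 2 or CD3_CD28_ICOS replicate 1 or 3, with adjusted p from 0.051 to 0.0783.

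The Polycomb-like genes Mtf2, Phf19 and Phf1 encode alternative subunits that bring PRC2 to unmethylated CpG islands, and their levels moved in different directions. Mtf2 (chromosome 5, 108065674 to 108109004, plus strand) was at 51.8, 52.2 and 39.8 CPM in unstimulated libraries, 165, 138 and 163 CPM in CD3, 33.5, 43.0 and 42.7 CPM in CD3_CD28 and 89.1, 71.2 and 80.0 CPM in CD3_CD28_ICOS. CD3 was far above the rest, CD3_CD28_ICOS came next without overlap, and CD3_CD28 overlapped unstimulated cells. Mtf2 rose by 1.68 ± 0.13 in CD3 (limma adjusted p = 7.83e-08) and by 0.73 ± 0.13 in CD3_CD28_ICOS (adjusted p = 0.000335). It was lower in CD3_CD28 than in CD3, with a difference of -1.94 ± 0.13 (limma adjusted p = 1.75e-07), and higher in CD3_CD28_ICOS than in CD3_CD28 by 1.00 ± 0.13 (adjusted p = 2.22e-05). CD3_CD28 minus unstimulated was -0.26, with a 95% interval of -0.55 to 0.03 (limma adjusted p = 0.0896), and was called lower after quantile normalisation (adjusted p = 0.0226) and without unstimulated replicate 3 (adjusted p = 0.0178).

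Mtf2 was lowest in the group in which the B cell markers were lowest, with their sum at 6.67 to 9.50 CPM in CD3_CD28 against 118 CPM or more elsewhere. It was highest in CD3, where that sum was 290.1, 307 and 635 CPM in replicates 1, 2 and 3, with Mtf2 at 163 CPM in the last and 165 CPM in the first. In CD3_CD28_ICOS the sum was 602, 199.8 and 511 CPM, with Mtf2 at 89.1, 71.2 and 80.0 CPM. Unstimulated libraries had sums of 118 to 206 CPM. The part of B cells in the Mtf2 result was not tested. Mtf2 also shares 395 exonic bases with Tmed5 on the opposite strand, a gene of the secretory pathway, so some reads cannot be told apart if counting ignored strand. Tmed5 was at 76.0 ± 3.24 CPM in unstimulated cells and 95.5 ± 11.9, 63.6 ± 6.01 and 60.3 ± 8.29 CPM in CD3, CD3_CD28 and CD3_CD28_ICOS, a narrower range than that of Mtf2.

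Phf19 (chromosome 2, 34893757 to 34914026, minus strand) was at 3.46, 2.99 and 2.48 CPM in unstimulated libraries, 31.4, 32.5 and 34.4 CPM in CD3, 13.2, 19.2 and 18.4 CPM in CD3_CD28 and 18.2, 14.0 and 11.3 CPM in CD3_CD28_ICOS. It was low in every unstimulated library, highest in CD3, and intermediate and overlapping in the other stimulated groups. The difference from unstimulated cells was 3.09 ± 0.18 in CD3, 2.16 ± 0.18 in CD3_CD28 and 1.95 ± 0.18 in CD3_CD28_ICOS, given with no p because Phf19 passed the filter only through the groups where it was high. CD3_CD28 was lower than CD3, with a difference of -0.93 ± 0.18 (limma adjusted p = 0.000477) and CD3_CD28_ICOS lower than CD3, with a difference of -1.15 ± 0.18 (adjusted p = 0.000185).

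Phf1, the third Polycomb-like gene (chromosome 17, 26933052 to 26937908, plus strand), belongs to the list of other PRC2 subunits and moved the opposite way. It was at 58.4 ± 7.01 CPM in unstimulated cells and 11.1 ± 2.29, 16.2 ± 1.91 and 21.4 ± 7.32 CPM in CD3, CD3_CD28 and CD3_CD28_ICOS. It fell by 2.30 ± 0.20 in CD3 (limma adjusted p = 2.94e-07), 1.79 ± 0.20 in CD3_CD28 (adjusted p = 2.62e-06) and 1.45 ± 0.20 in CD3_CD28_ICOS (adjusted p = 3.97e-05). Per kilobase of exon, Phf1 made up 65.0 ± 5.97% of the 3 Polycomb-like genes in unstimulated cells, 8.68 ± 1.80% in CD3, 31.3 ± 5.99% in CD3_CD28 and 26.5 ± 7.65% in CD3_CD28_ICOS. Mtf2 made up 32.7 ± 5.61%, 73.7 ± 2.89%, 46.5 ± 3.13% and 61.0 ± 4.59% in that order, and Phf19 2.30 ± 0.409%, 17.7 ± 1.25%, 22.3 ± 2.87% and 12.6 ± 3.17%. Phf1 held the greatest share of the 3 in every unstimulated library and Mtf2 in every stimulated one.

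**Figure D3:**
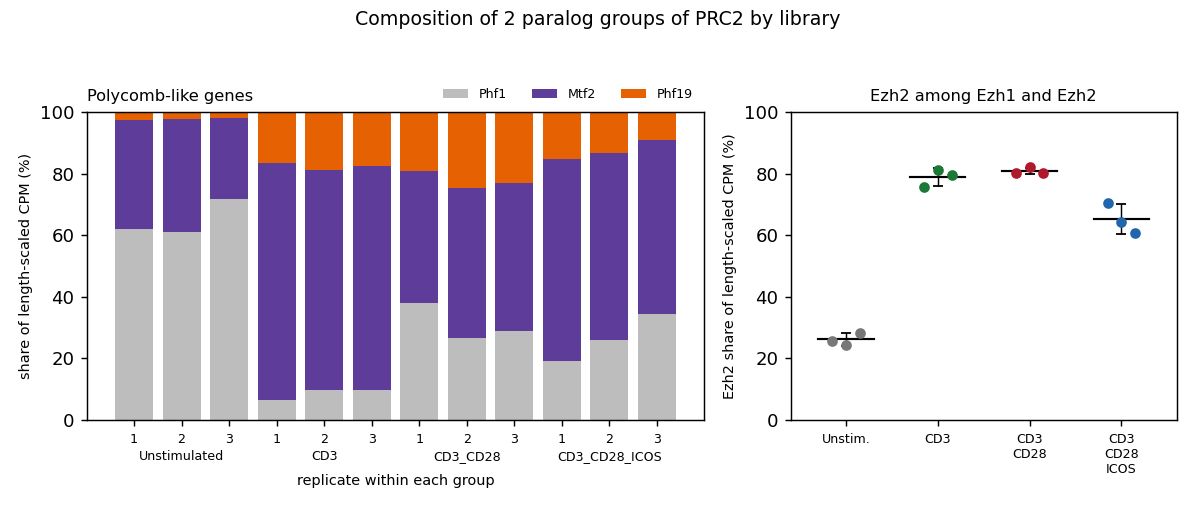
Left, shares of Phf1, Mtf2 and Phf19 in their summed length-scaled CPM in each library (stacked bars, replicates 1 to 3 of each group). Right, the share of Ezh2 in Ezh1 and Ezh2 in each library (points) with the mean and SD of each group; Phf1 led the left panel in unstimulated libraries at 60.9 to 71.8% and Ezh2 went from 24.4 to 28.3% to at least 60.8% in the right.

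Other PRC2 subunits were Rbbp4, Rbbp7, Aebp2, Epop, Lcor and Lcorl, tested with Phf1, while Ezhip was not analysed here. Of these 7, 4 were higher and 3 lower in CD3 against unstimulated cells, 3 and 3 in CD3_CD28, and 1 and 3 in CD3_CD28_ICOS. Beside these, the shares of all genes called higher and lower were 43.6% and 26.3%, 36.1% and 39.1%, and 35.6% and 23.7%. Both other scalings gave the same counts, except for 3 and 2 in CD3_CD28 with median-of-ratios size factors. The medians were 0.48, -0.18 and -0.03, against 0.18, -0.04 and 0.08 over all genes. Aebp2, the partner of Jarid2 in the same PRC2 variant, rose from 150 ± 2.12 CPM to 296 ± 8.48, 292 ± 20.9 and 215 ± 5.47 CPM. Its changes were 0.98 ± 0.07 in CD3 (limma adjusted p = 4.4e-08), 0.95 ± 0.07 in CD3_CD28 (adjusted p = 4.01e-08) and 0.51 ± 0.07 in CD3_CD28_ICOS (adjusted p = 4e-05). Rbbp7, a histone-binding subunit shared with other complexes, was at 115 ± 4.23 CPM in unstimulated cells, 268 ± 10.99 CPM in CD3 and 150 ± 17.8 CPM in CD3_CD28, and was lower in CD3_CD28 than in CD3, with a difference of -0.84 ± 0.13 (limma adjusted p = 0.00012). Epop, which couples PRC2 to elongin, had 28.9 ± 4.73 CPM in CD3_CD28 against 16.1 ± 3.18 CPM in CD3_CD28_ICOS, lower in the latter, with a difference of -0.81 ± 0.16 (limma adjusted p = 0.000464).

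Of the demethylases, Kdm6b (also JMJD3), known as the inducible one (chromosome 11, 69398508 to 69413675, minus strand), was at 158, 150 and 189 CPM in unstimulated libraries, 79.3, 89.1 and 63.3 CPM in CD3, 166, 213 and 183 CPM in CD3_CD28 and 112, 193 and 136 CPM in CD3_CD28_ICOS. CD3 stood below every other group without overlap, and the other 3 groups overlapped. Kdm6b fell by 1.10 ± 0.18 in CD3 (limma adjusted p = 0.000143), was higher in CD3_CD28 than in CD3 by 1.27 ± 0.18 (adjusted p = 7.32e-05) and was higher in CD3_CD28_ICOS than in CD3 by 0.90 ± 0.18 (adjusted p = 0.00152). CD3_CD28 minus unstimulated was 0.18, with a 95% interval of -0.22 to 0.57 (limma adjusted p = 0.392), and CD3_CD28_ICOS minus unstimulated was -0.20, with an interval of -0.59 to 0.20 (adjusted p = 0.374). Without CD3_CD28_ICOS replicate 2 the second of these was -0.41 and called (limma adjusted p = 0.0374), and CD3_CD28_ICOS minus CD3_CD28 went from -0.37 (adjusted p = 0.0916) to -0.59 (adjusted p = 0.00476).

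That replicate had the lowest B cell marker sum of its group, 199.8 CPM against 602 CPM in replicate 1 and 511 CPM in replicate 3, where Kdm6b was at 112 and 136 CPM. In CD3 the lowest Kdm6b value, 63.3 CPM, was in replicate 3, which had the highest B cell marker sum of that group, 635 CPM, while replicate 2 exceeded replicate 1 in both. In unstimulated cells replicate 3 had both the highest sum, 206 CPM, and the highest Kdm6b, 189 CPM, and replicate 2 the lowest of each. The part of B cells in the Kdm6b result was not tested. The antisense transcript Kdm6bos, which shares 286 exonic bases with Kdm6b, reached at most 2.37 CPM.

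Kdm6a (also UTX), the X-linked demethylase (chromosome X, 18162575 to 18279936, plus strand), varied little. It was at 73.8, 71.8 and 63.9 CPM in unstimulated libraries, 55.8, 56.6 and 60.1 CPM in CD3, 46.7, 55.1 and 51.4 CPM in CD3_CD28 and 72.7, 62.8 and 77.9 CPM in CD3_CD28_ICOS. CD3 and CD3_CD28 lay below both other groups, which overlapped each other. It fell by 0.44 ± 0.10 in CD3_CD28 (limma adjusted p = 0.00113) and by 0.27 ± 0.10 in CD3 (adjusted p = 0.0253), the latter being lost without unstimulated replicate 1 or 2 or CD3 replicate 1 or 2 (adjusted p from 0.0679 to 0.0909). CD3_CD28_ICOS minus unstimulated was 0.02, with a 95% interval of -0.19 to 0.24 (limma adjusted p = 0.855). CD3_CD28_ICOS was higher than CD3_CD28 by 0.47 ± 0.10 (limma adjusted p = 0.00111) and higher than CD3 by 0.30 ± 0.10 (adjusted p = 0.0253), the latter being lost without CD3 replicate 1 or 2 or CD3_CD28_ICOS replicate 1 or 3 (adjusted p from 0.0589 to 0.12). Per kilobase of exon, Kdm6b made up 73.9 ± 3.68% of the pair in unstimulated cells, 61.5 ± 4.98% in CD3, 81.5 ± 0.710% in CD3_CD28 and 70.6 ± 7.26% in CD3_CD28_ICOS, so that its mean was the higher of the pair in every group on this scale. With the longest coding transcripts 1 CD3 library was at 48.5%.

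**Figure D4:**
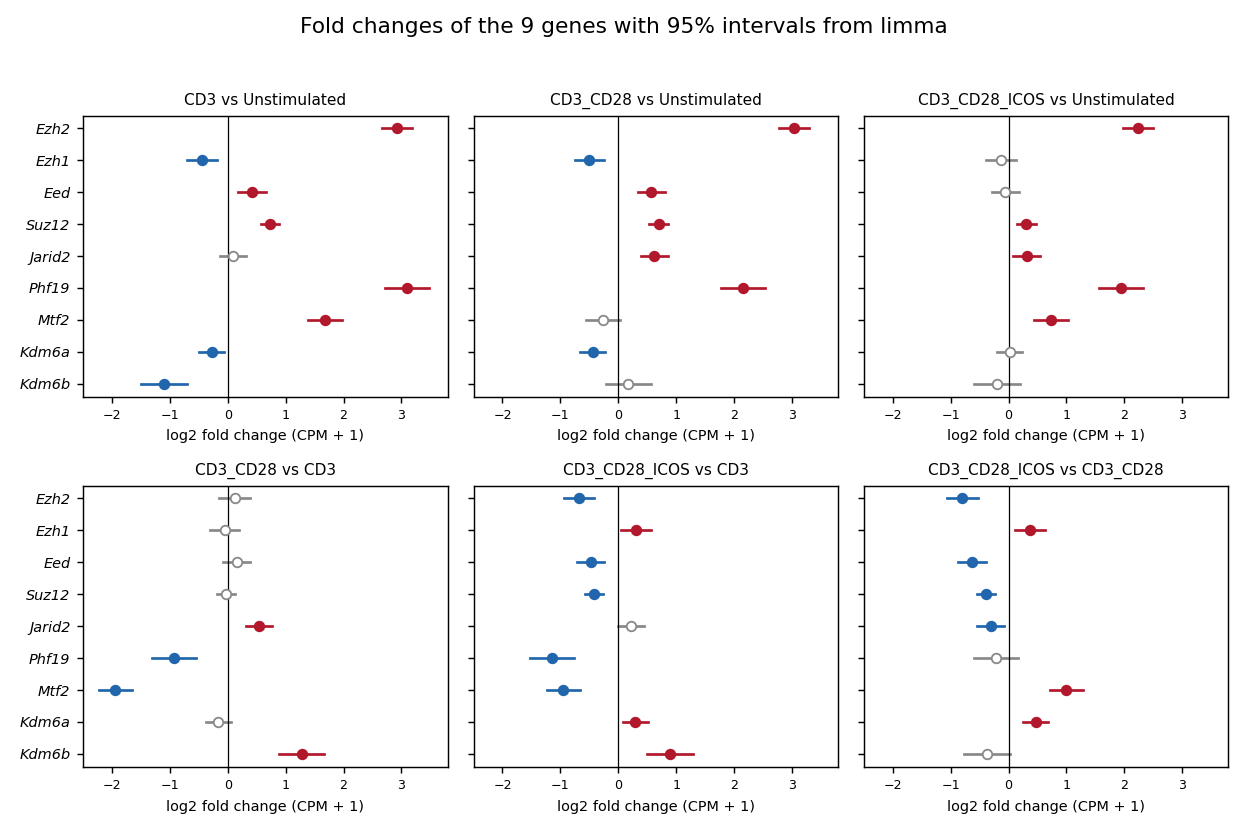
Log2 fold changes on the log2(CPM + 1) scale of the 9 genes in the 6 comparisons, with 95% intervals from limma; filled points were called, red higher and blue lower, and open points were not. Ezh2 and Phf19 had the largest changes from unstimulated cells in each of the 3 upper panels, and Mtf2 and Kdm6b the largest between CD3_CD28 and CD3, at -1.94 and 1.27. The filter favoured the rise of Phf19, which passed it only through stimulated libraries.

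The order of groups differed between the genes. From the lowest mean to the highest, Ezh2 and Suz12 began with unstimulated cells followed by CD3_CD28_ICOS, and neighbours overlapped only between CD3 and CD3_CD28. Ezh1 ran from CD3_CD28 through CD3 and CD3_CD28_ICOS to unstimulated cells, with every pair of neighbours overlapping. Mtf2 and Kdm6b had CD3 at opposite ends, Mtf2 at the top and Kdm6b at the bottom.

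Genes whose pattern over the 12 libraries was closest to Ezh2, by the root mean square difference of centred log2(CPM + 1) among 8897 genes, were Sh3rf1 (0.205), Kcnq5 (0.210), Plk4 (0.233), Stard4 (0.233) and Ddias (0.235), against a median of 1.25 over all genes. Closest to Ezh1 were Zfp148 (0.0959), Sash3 (0.0973), Zscan20 (0.101), Kdm2a (0.105) and R3hcc1l (0.110), against a median of 0.438. Closest to Kdm6b were Nfatc2 (0.214), Atp7a (0.223), Cnst (0.231), Anxa6 (0.236) and Rhof (0.240), against a median of 0.730. Nfatc2, the gene of an NFAT transcription factor, had means of 152, 91.7, 173 and 159 CPM in unstimulated, CD3, CD3_CD28 and CD3_CD28_ICOS cells, with Kdm6b at 166, 77.2, 187 and 147 CPM.

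Polycomb repressive complex 1, which ubiquitinates histone H2A and compacts chromatin that PRC2 has marked, moved in both directions. Of its 22 listed genes 21 were tested, with 6 higher and 6 lower in CD3, 7 and 7 in CD3_CD28 and 7 and 6 in CD3_CD28_ICOS against unstimulated cells. After quantile normalisation these became 6 and 11, 7 and 8, and 5 and 10, and with median-of-ratios size factors 6 and 10, 7 and 6, and 5 and 9. Of the genes tested, Pcgf2 was under 10 CPM in every unstimulated library and passed the filter only through stimulated ones. As deposited, each count of higher PRC1 genes includes it, a direction that the filter favoured. Kdm2b, which brings a PRC1 variant to CpG islands, rose from 50.9 CPM to 198, 156 and 210 CPM in CD3, CD3_CD28 and CD3_CD28_ICOS, by 1.94 ± 0.14 in CD3 (limma adjusted p = 3.52e-08). Pcgf5, a variant PRC1 subunit, was at 43.0 ± 2.20, 127 ± 27.3, 409 ± 65.3 and 120 ± 40.6 CPM, and was higher in CD3_CD28 than in CD3 by 1.69 ± 0.21 (limma adjusted p = 2.28e-05). Cbx7, a reader of H3K27me3, was at 64.3 CPM in unstimulated and 26.3 CPM in CD3_CD28 cells, a fall by 1.25 ± 0.22 (limma adjusted p = 0.000178). The complex that removes the H2A mark had 9 of 10 listed genes tested, 5 higher and 3 lower in CD3, 2 and 3 in CD3_CD28 and 4 and 2 in CD3_CD28_ICOS. After quantile normalisation these became 4 and 4, 2 and 4, and 4 and 4, and with median-of-ratios size factors 4 and 4, 4 and 3, and 4 and 4, so that the balance depended on the scaling. Over all genes 43.6% were higher and 26.3% lower in CD3, 36.1% and 39.1% in CD3_CD28, and 35.6% and 23.7% in CD3_CD28_ICOS.

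The enzymes of H3K4 and H3K36 methylation and of H3K27 acetylation, marks that exclude or oppose H3K27me3, were counted in the same way. Of 18 tested, 4 were higher and 10 lower in CD3, 3 and 11 in CD3_CD28 and 2 and 8 in CD3_CD28_ICOS than in unstimulated cells, with medians of -0.36, -0.42 and -0.20 against 0.18, -0.04 and 0.08 over all genes. The shares over all genes are those just given for the Polycomb lists. Under the other scalings 2 to 3 were higher and 10 to 13 lower in each of the 3 comparisons. Kmt2d, an H3K4 methyltransferase of enhancers whose complex also holds KDM6A, was at 898 CPM in unstimulated cells and 325, 226 and 521 CPM in CD3, CD3_CD28 and CD3_CD28_ICOS, and fell by 2.00 ± 0.13 in CD3_CD28 (limma adjusted p = 1.11e-08). Its paralog Kmt2c fell from 620 to 212 CPM in CD3, by 1.54 ± 0.11 (limma adjusted p = 3.46e-08). Nsd2, an H3K36 methyltransferase, moved the other way, from 35.1 to 344, 198 and 170 CPM, a rise of 3.26 ± 0.12 in CD3 (limma adjusted p = 1.15e-10). In CD3_CD28_ICOS against CD3_CD28, 11 of the 18 were higher and 3 lower, beside 38.5% and 24.5% of all genes, with 8 and 5 under median-of-ratios size factors, and Kmt2a, another H3K4 methyltransferase, was higher by 1.48 ± 0.13 (limma adjusted p = 5.22e-07).

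**Figure D5:**
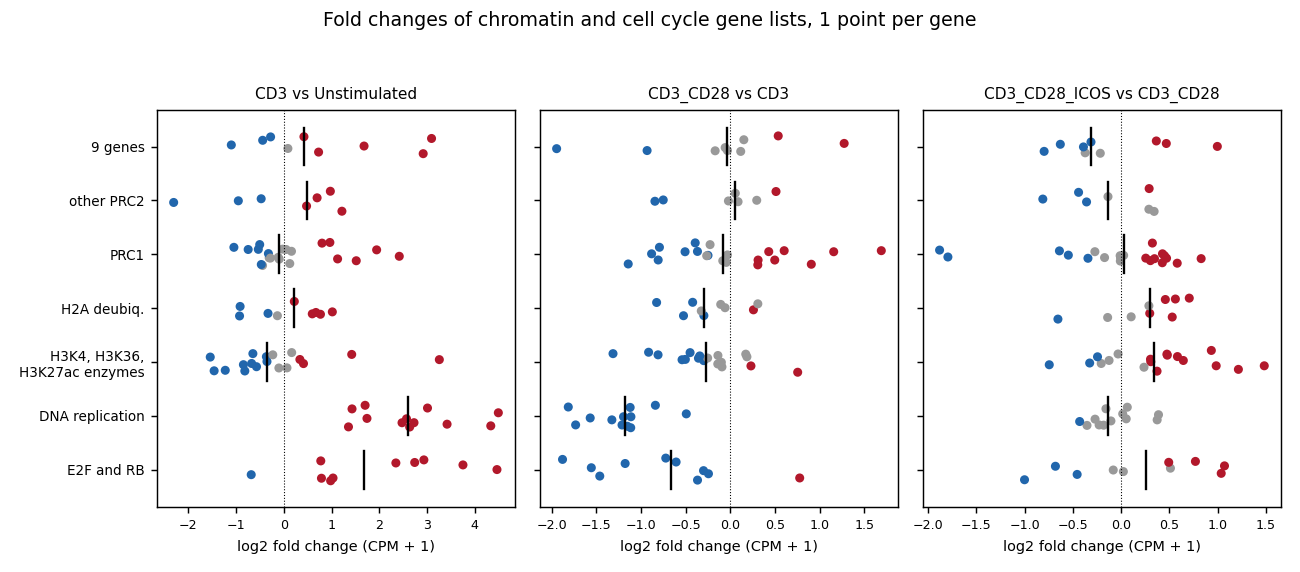
Log2 fold changes on the log2(CPM + 1) scale of single genes (points) in 7 gene lists for 3 comparisons, with the median of each list (black line); red and blue points were called higher and lower, grey points were not. DNA replication genes lay above 0 in CD3 against unstimulated, with a median of 2.60, and below 0 in CD3_CD28 against CD3, with a median of -1.17.

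Genes reported as EZH2 targets in helper T cells were mostly too low to test, with 3 of 12 reaching the threshold. Tbx21, the TH1 regulator T-bet, was at 3.54 CPM in unstimulated cells and 59.9, 21.7 and 40.3 CPM in CD3, CD3_CD28 and CD3_CD28_ICOS, and passed the filter only through stimulated libraries, so no p is given for it. Gata3, the TH2 regulator, was at 65.6 CPM in unstimulated cells and 49.8, 172 and 176 CPM in the stimulated groups, and was higher in CD3_CD28 than in CD3 by 1.76 ± 0.17 (limma adjusted p = 3.06e-06). Eomes, a T-box factor, rose from 24.5 to 109 CPM in CD3, by 2.12 ± 0.44 (limma adjusted p = 0.00141). Those below the threshold included Cdkn2a, Cdkn2b, Ifng, Il4, Il10, Il13, Zbtb16 and Prdm1. Cdkn2a, the tumour suppressor locus long known as a PRC2 target, was at 0.693 CPM or less in every library. H3K27me3 itself was not measured in these samples, and RNA levels of the enzymes do not give it.

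In the authors' deposited table, a call at a false discovery rate under 0.05 was the same as limma's in 39 of 54 comparisons of the 9 genes. The other 15 were called by limma and not in the authors' deposited table, and 0 were called in opposite directions. Among the 15 were every limma call of Ezh1 and of Kdm6a. Against CD3, Phf19 in CD3_CD28 and in CD3_CD28_ICOS were also among them, with authors' false discovery rates of 0.133 and 0.0743. The rest were Eed in CD3 against unstimulated and in CD3_CD28_ICOS against CD3, and Suz12 in CD3_CD28_ICOS against unstimulated. Jarid2 in CD3_CD28_ICOS against unstimulated and against CD3_CD28 completed them. The authors' deposited table gave Ezh2 a log2 ratio of 2.97 in CD3 against unstimulated, with a false discovery rate of 1.07e-55.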

How the data were processed

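RNA of 12 libraries of mouse CD4+ T cells was measured by RNA-seq. The submitters' processing notes name Partek 10, DESeq2 and build mm10. Aligner, counter, annotation and strand setting: not given in the sources used here. The deposited gene table holds CPM, which the authors made per 1e6 reads assigned to genes with 1e-04 added to every value, as the values show; the offset was removed. The authors' deposited table gives, per its file header, p-values with step-up FDR, ratios, log2 ratios, signed fold changes (a score, negative below a ratio of 1), and total signal over all libraries, equal to the row sums of CPM. Columns of per-sample values that could not be matched numbered 0. The unit was unknown when the tests were planned, and the test for CPM was used.

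Here, log2(CPM + 1) of the 9826 genes that reached 10 CPM in 3 or more libraries was fitted with limma 3.58.1 (trend, robust) in R 4.3.3 over all 12 libraries, without a replicate block. P-values are two-sided and Benjamini-Hochberg adjusted over all genes tested in each of 6 comparisons. Values under 1.2 CPM were whole multiples of 1 read, within 0.02 reads, in 76.2 to 81.2% of cases, too few to recover counts, so no count test was run; intervals from CPM carry the depth of 11.4 to 37.5 M reads only indirectly. The log2 difference of Ezh2 and Ezh1 was tested by exact permutation in Python 3.11.15 (numpy 2.4.6, scipy 1.17.1, pandas 2.3.3, matplotlib 3.10.9). Gene lengths and coordinates are of GENCODE M21 (GRCm38), and start windows of RefSeq GRCm38.p6. The limma step was tested on simulated data. Alternatives were other scalings, filters, pseudocounts, fits, the replicate block and leaving out each library.

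The 9 genes, the gene lists and the measures were chosen with earlier results of these data known. Every one of the 9 is named, as are up to 4 genes per list and comparison with the largest called change and the 5 genes closest to Ezh2, Ezh1 and Kdm6b. Mki67, Mcm2, Cd3e and Cd4 could always be named, and genes that overlap the 9 were added after their values were seen. A gene counted in the list of reported EZH2 targets is not reported here by name.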

Additional observations from a re-analysis of the deposited data

How the results depend on the processing

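No called change of the 9 genes turned its direction under any alternative. Both exact tests of Ezh2 against Ezh1 kept their calls under all 25 alternatives, with p up to 0.000584 and 0.0321 when 1 library was left out, and 0.00174 and 0.0278 with the replicate block. Whether replicate numbers pair the libraries is not settled by these values. Of 18 pairs of same-numbered libraries 6 correlated above 0.1 and 0 below -0.1, with a highest value of 0.408. In 16 of 36 combinations of a library and another group, the library correlated best with its own number. With the replicate block the call of Ezh1 in CD3_CD28_ICOS against CD3 was lost (limma adjusted p = 0.0546), and the number of the 9 higher there went from 3 to 2.

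Without the filter the genes called lower than in unstimulated cells were 4472 in CD3, 6595 in CD3_CD28 and 3744 in CD3_CD28_ICOS, against 2582, 3846 and 2332, since more genes were tested. For CD3_CD28 against CD3, quantile normalisation called 2882 genes higher, and median-of-ratios size factors 3153 higher and 2807 lower, with 5 of the 9 genes higher in place of 2. These added Ezh2, Eed (0.40) and Suz12. For CD3_CD28_ICOS against CD3_CD28, median-of-ratios called 3605 genes lower, against 2403. Leaving out 1 library, the number of the 9 lower in CD3_CD28_ICOS than in unstimulated cells ranged from 0 to 1, and the number higher than in CD3 from 1 to 3. The cause of these moves was not tested.

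Signs turned only for differences that had not been called. Jarid2 in CD3 against unstimulated went to -0.0996 (quantile) and -0.0651 (median of ratios), and ranged from -0.0267 to 0.166 leaving out 1 library. Kdm6a in CD3_CD28_ICOS against unstimulated went to -0.107 and -0.0788, with a range of -0.0441 to 0.109. Eed there ranged from -0.154 to 0.023. Without both unstimulated replicate 3 and CD3_CD28 replicate 1, chosen after seeing the data, Jarid2 was at -0.0267 and Kdm6a at -0.0385. In CD3_CD28 against CD3, Ezh1 went to 0.144, 0.195 and, without the ribosomal RNA gene, 0.0021. It ranged from -0.119 to 0.000354, and was at 0.000354 without both libraries. Suz12 went to 0.0361, 0.223 (then called) and 0.0282 under the same 3 settings, and Kdm6a to 0.0309 and 0.0817 under the 2 scalings.

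The 9 genes gave 789 values on the same side of the threshold over all alternatives, 34 that lost a call, 12 that gained one and 20 that changed sign. Lost calls were of Ezh1, Eed, Jarid2 and Kdm6a. Gained ones not given above were Jarid2 in CD3_CD28_ICOS against CD3 (both scalings), Phf19 against CD3_CD28 (median of ratios) and Kdm6b against CD3_CD28 (both scalings).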
